A study of Mus musculus with 8 samples.

Results

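The genes described here supply DNA synthesis with its building blocks, the deoxynucleotides: Rrm1, Rrm2, Rrm2b, Tk1, Tk2, Tyms, Dck, Dut and Samhd1. They are 9 of the 22180 genes that had a probe set with a single gene symbol on the array, and each was read from its probe set with the highest mean over all 8 arrays, whatever the genotype. All 9 were among the 13449 genes tested. Rrm2 and Tk1 were singled out because earlier results of this same comparison were known, so their differences are given as a description with no p-value. The study measured RNA from the liver of male C57BL/6J mice on Affymetrix whole-transcript arrays. Of these arrays, 4 were from wild type littermates and 4 from knock-in mice. In the knock-in mice Tm6sf2, an endoplasmic reticulum protein of lipoprotein lipidation, has the coding variant E167K. The diet is not settled by the labels: a high-fat diet for 20 weeks stands in the series description, and a fat-free sucrose diet or chow for 14 weeks in the treatment note. The sources used here give no age, zygosity or hour of collection. Nothing says that each array held RNA of a separate animal, so p-values measure only the spread between these samples, which may be technical.

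A cell makes deoxynucleotides by 2 routes. In the de novo route, ribonucleotide reductase removes an oxygen from ribonucleotides, and thymidylate synthase adds the methyl group of thymine. In the salvage route, kinases phosphorylate deoxynucleosides taken up or recycled from DNA. Rrm2, Tk1 and Tyms are known as genes of dividing cells, whereas Rrm2b and Tk2 also serve cells at rest and the DNA of their mitochondria. The adult liver is mostly made of resting hepatocytes.

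In knock-in liver, Rrm2 and Tk1 were higher than in wild type liver by about the same amount, and in each of them all 4 knock-in arrays lay above all 4 wild type arrays. In the other 7 genes the groups overlapped. All values are log2 expression, and all differences are knock-in minus wild type. The 9 genes had a median difference of 0.09, with 6 higher and 3 lower, against a median of 0.0046 over all tested genes, of which 51.13% were higher. That median and count include Rrm2 and Tk1, which were picked from this comparison. The other 7 genes had a median difference of 0.0655, with 4 higher and 3 lower. Of the 9 genes, 0 passed limma's test at an adjusted p of 0.05, against 0.0669% of all tested genes (0.0223% higher and 0.0446% lower). Of the 7 genes other than Rrm2 and Tk1, 0 had an unadjusted limma p under 0.05, against 11.3% of all tested genes (6.01% higher and 5.29% lower). Groups did not overlap in 7.16% of all tested genes, 3.96% with the knock-in above and 3.2% with it below. Since Rrm2 and Tk1 were picked from this comparison, nothing is read from these shares about them.

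**Figure D1:**
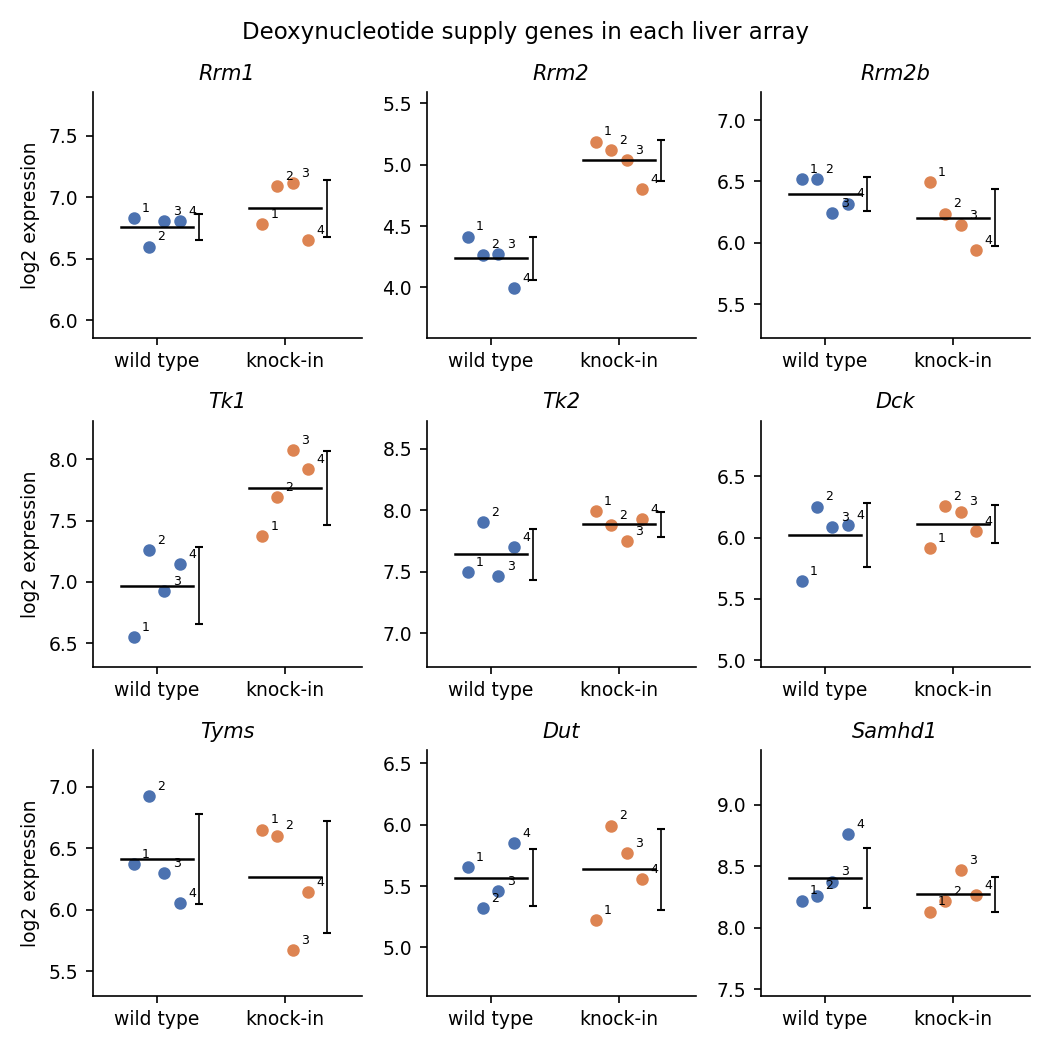
Log2 expression of each gene (vertical axis, spanning 2 units in every panel) in the 4 wild type and 4 knock-in arrays. Points are arrays with their replicate number, horizontal lines are group means and vertical bars 1 SD. In Rrm2 and Tk1 the groups lie apart, and in the other 7 genes they overlap.

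Ribonucleotide reductase is built from a large catalytic subunit, Rrm1, and a small subunit that is either Rrm2 or Rrm2b. Rrm2, the small subunit of the S phase enzyme, measured 4.41, 4.27, 4.27 and 4.00 in wild type replicates 1 to 4 and 5.19, 5.12, 5.03 and 4.80 in knock-in replicates 1 to 4. The lowest knock-in array stood 0.38 above the highest wild type array. Means were 4.24 ± 0.18 and 5.03 ± 0.17 (SD, n = 4 each), a difference of 0.80 (SE 0.12) or 1.74-fold. Rrm2 was dim: the limit below which a probe set was called dim, the 40th percentile of each array, lay at 3.46 to 3.50, so the size of the difference can be compressed. A second Rrm2 probe set lay below that limit on all arrays, at 2.09 to 2.45 in both genotypes, and gives no measure of its own.

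Rrm1, the catalytic subunit, measured 6.83, 6.60, 6.80 and 6.81 in wild type and 6.78, 7.09, 7.12 and 6.65 in knock-in arrays. Knock-in replicates 2 and 3 were above every wild type array, and the other two lay within the wild type range. The difference was 0.15 (SE 0.12, 95% interval -0.13 to 0.43, limma adjusted p = 0.707). Rrm2b, the small subunit that p53 induces and that serves cells outside S phase, measured 6.52, 6.52, 6.24 and 6.32 in wild type and 6.49, 6.24, 6.14 and 5.94 in knock-in arrays. Its difference was -0.20 (SE 0.13, 95% interval -0.49 to 0.10, limma adjusted p = 0.620). The 3 subunits of the enzyme thus gave 1 gene whose groups lay apart and 2 whose intervals span 0. Those intervals allow differences of either sign in Rrm1 and Rrm2b.

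**Figure D2:**
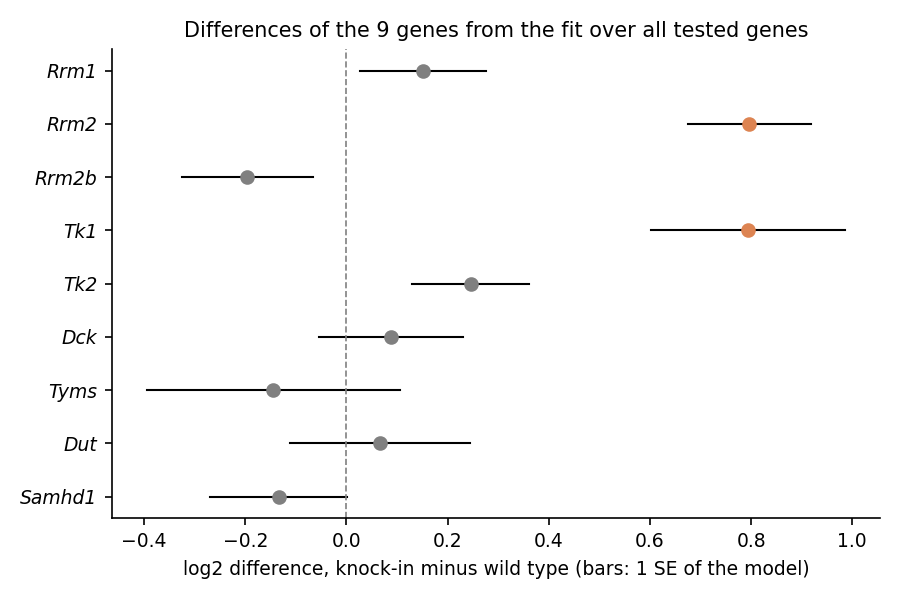
Log2 difference, knock-in minus wild type, of the 9 genes (horizontal axis), with bars of 1 SE from the limma model. Orange points are genes whose groups did not overlap. Rrm2 and Tk1 lie near 0.80, and the others between -0.20 and 0.25.

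Among the salvage kinases, Tk1, the cytosolic thymidine kinase of S phase, measured 6.55, 7.26, 6.93 and 7.14 in wild type and 7.38, 7.69, 8.07 and 7.92 in knock-in arrays. The gap between the groups, 0.11, was narrower than that of Rrm2, because the arrays of each genotype were more spread. Means were 6.97 ± 0.31 and 7.76 ± 0.30 (SD, n = 4 each), a difference of 0.79 (SE 0.19) or 1.73-fold. Rrm2 and Tk1 did not rank the arrays alike: in both genotypes replicate 1 had the highest Rrm2 and the lowest Tk1. After the mean of each genotype was removed, their correlation over the 8 arrays was -0.67, given as a description of arrays that share a normalization.

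Tk2, the thymidine kinase of mitochondria, measured 7.50, 7.90, 7.46 and 7.70 in wild type and 7.99, 7.88, 7.75 and 7.93 in knock-in arrays. Wild type replicate 2 reached into the knock-in range, and replicates 1, 3 and 4 wild type arrays lay below it. The difference was 0.25 (SE 0.12, 95% interval -0.02 to 0.51, limma adjusted p = 0.464). Dck, the kinase of deoxycytidine and the purine deoxynucleosides, measured 5.64, 6.25, 6.08 and 6.10 in wild type and 5.92, 6.26, 6.21 and 6.05 in knock-in arrays. Wild type replicate 1 was the lowest array, and the other wild type arrays lay within the knock-in range. The difference was 0.09 (SE 0.14, 95% interval -0.23 to 0.41, limma adjusted p = 0.874). Leaving that array out gave -0.04.

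Thymidylate has its own branch. Dut, the enzyme that splits dUTP and so keeps uracil out of DNA while feeding thymidylate synthesis, measured 5.65, 5.32, 5.46 and 5.85 in wild type and 5.22, 5.99, 5.77 and 5.55 in knock-in arrays. The lowest and the highest of the 8 values were both from knock-in arrays. Its difference was 0.07 (SE 0.18, 95% interval -0.34 to 0.47, limma adjusted p = 0.933). It was -0.02 when wild type replicate 2 was left out and -0.05 when knock-in replicate 2 was. A second Dut probe set was dim on all arrays. Tyms, thymidylate synthase, measured 6.37, 6.93, 6.30 and 6.05 in wild type and 6.65, 6.60, 5.67 and 6.14 in knock-in arrays. Tyms had the widest spread of the 9 genes within each genotype (SD 0.37 and 0.46, n = 4 each). The difference was -0.14 (SE 0.25, 95% interval -0.71 to 0.42, limma adjusted p = 0.887). It was 0.03 when wild type replicate 2 was left out and 0.05 when knock-in replicate 3 was. A Tyms copy, Tyms-ps, shares a further probe set with Tyms, which was dim on all arrays and not used.

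Samhd1 works in the opposite direction, as a hydrolase that breaks down deoxynucleotide triphosphates and keeps their pools low in cells that do not divide. It measured 8.22, 8.26, 8.38 and 8.76 in wild type and 8.13, 8.22, 8.47 and 8.27 in knock-in arrays. Wild type replicate 4 stood highest, and the other 7 values lay within the range of the knock-in arrays. The difference was -0.13 (SE 0.14, 95% interval -0.44 to 0.17, limma adjusted p = 0.771). Leaving out wild type replicate 4 gave -0.01.

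The stretches upstream of Rrm2, Tk1 and Rrm1 are shown because Rrm2 and Tk1 had similar differences and Rrm1 is the partner subunit of Rrm2. RefSeq windows on GRCm38.p6 that run from 250 bases before to 50 bases after a start site were found for 8 of the 9 genes, and only the bases outside the annotated gene are printed. Capitals mark CCAAT, the core of the NF-Y element, and GGGCGG, the GC box, each on either strand. The sequences run 5′ to 3′ on the strand of the gene.
Rrm2, chr12:24708004-24708253, plus strand: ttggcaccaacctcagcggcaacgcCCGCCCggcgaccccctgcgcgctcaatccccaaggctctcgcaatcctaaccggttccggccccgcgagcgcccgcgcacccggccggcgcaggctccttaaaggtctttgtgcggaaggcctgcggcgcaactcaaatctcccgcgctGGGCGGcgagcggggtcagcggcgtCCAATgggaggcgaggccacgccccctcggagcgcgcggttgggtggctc
Tk1, chr11:117826088-117826264, minus strand: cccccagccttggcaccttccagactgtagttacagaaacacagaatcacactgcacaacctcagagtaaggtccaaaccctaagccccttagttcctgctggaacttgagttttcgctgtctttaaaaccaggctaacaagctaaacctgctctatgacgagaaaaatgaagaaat
Rrm1, chr7:102441445-102441694, plus strand: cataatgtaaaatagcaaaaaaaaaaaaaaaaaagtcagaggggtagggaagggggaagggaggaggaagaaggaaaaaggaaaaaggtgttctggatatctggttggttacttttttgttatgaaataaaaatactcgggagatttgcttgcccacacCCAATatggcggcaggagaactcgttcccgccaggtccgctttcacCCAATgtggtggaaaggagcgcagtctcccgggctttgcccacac

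Rrm2 held 1 CCAAT, which starts 50 bases before its start site, and 2 GC boxes. Rrm1 held 2 CCAAT, which start 91 and 45 bases before the start site, and 0 GC boxes. The window of Tk1 held 0 CCAAT and 1 GC box, which lies 13 bases before the start site and inside the annotated gene, so it is not printed. Over all 32851 windows of the same length, 37.41% held CCAAT and 35.66% held GGGCGG. The E2F-type words TTTGGCGC, TTTCGCGC, TTTCCCGC and TTTGCCGC, searched on both strands, were in 0 of the 8 windows and in 2.26% of all windows. Only these exact words were searched. Shorter or differing forms of an E2F site would be missed, so 0 matches do not show that a window lacks one. TTTGAA, the core of the CHR element of mitotic genes, was found in the windows of Tk2 and Dck and in 17.89% of all windows. A match describes the letters only.

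The enzymes next to these 9 in deoxynucleotide metabolism had no common direction. Of 18 tested genes, 7 were higher and 11 lower, with a median of -0.03, and 0 passed limma's adjusted test. At an unadjusted p under 0.05, 3 were higher and 2 lower, which is 27.8% of the list against 11.3% of all tested genes. Nme1, a nucleoside diphosphate kinase that makes triphosphates from diphosphates, was at 5.52 to 6.12 across the wild type arrays and 6.27 to 6.87 across the knock-in arrays, which did not overlap. Its difference was 0.70 (SE 0.18, limma adjusted p = 0.202). Nme1 has a close copy, Nme2, and Pnp has one in Pnp2, and the array may not tell such copies apart. Dctpp1, which removes dCTP and its modified forms from the pool, was at 7.05 to 7.51 and 7.67 to 7.74, also without overlap, a difference of 0.43 (SE 0.12, limma adjusted p = 0.251). Nt5c, a cytosolic nucleotidase that returns deoxynucleotides to deoxynucleosides, was at 0.26 (SE 0.09).

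On the lower side, Cmpk2, a mitochondrial kinase of dUMP and dCMP that interferon induces, was at -0.78 (SE 0.22, limma adjusted p = 0.253), and Pnp, the purine nucleoside phosphorylase, at -0.44 (SE 0.14). Dtymk, the thymidylate kinase through which the products of both Tyms and Tk1 must pass, averaged 6.71 ± 0.11 in wild type against 6.66 ± 0.14 in knock-in liver (SD, n = 4 each), a difference of -0.05 (95% interval -0.27 to 0.18). Dguok, the mitochondrial kinase of purine deoxynucleosides, was higher by 0.15 (SE 0.07, limma adjusted p = 0.477). All of its knock-in arrays lay above the wild type arrays, although by little.

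The folate cycle brings the carbon that Tyms adds. Of 12 tested genes, 9 were higher, with a median of 0.14, and 0 passed the adjusted limma test, with 2 higher and 0 lower at an unadjusted p under 0.05 (16.7% of the list against 11.3% of all tested genes). Aldh1l1, which oxidizes formyl-folate in the cytosol, was at 10.14 to 10.37 across the wild type arrays and 10.47 to 10.62 across the knock-in arrays, a difference of 0.29 (SE 0.08, limma adjusted p = 0.260). Shmt1, the serine hydroxymethyltransferase that loads folate for thymidylate synthesis, was at 9.41 to 9.42 and 9.51 to 9.86, a difference of 0.25 (SE 0.10, limma adjusted p = 0.385). In both genes the groups did not overlap.

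**Figure D3:**
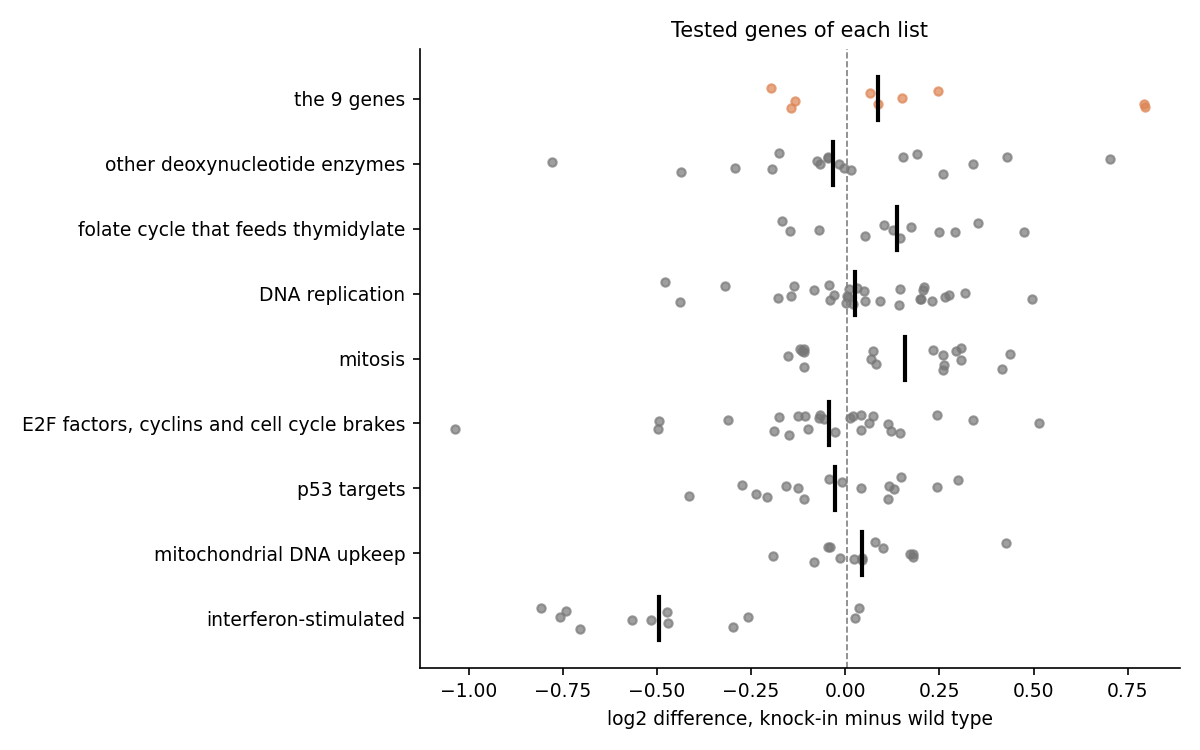
Log2 difference, knock-in minus wild type (horizontal axis), of every tested gene in the 9-gene group and in 8 related lists. Points are genes, thick bars are medians, and the dashed line is the median of all tested genes. The medians of the lists lie between -0.04 and 0.16, apart from the interferon-stimulated list at -0.49.

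Genes of DNA replication, which use the deoxynucleotides, were near the background. Of 30 tested, 20 were higher and 10 lower with a median of 0.03, 0 passed limma's adjusted test, and 1 (3.33%, against 11.3% of all tested genes) had an unadjusted p under 0.05. That gene was Gmnn, the inhibitor of replication licensing, at 4.62 to 5.24 across the wild type arrays and 5.41 to 5.69 across the knock-in arrays, a difference of 0.50 (SE 0.14, limma adjusted p = 0.253). Pcna, the sliding clamp of the replication fork, was at 8.76 ± 0.16 and 8.81 ± 0.05 (SD, n = 4 each), a difference of 0.05 (95% interval -0.17 to 0.27). Leaving out wild type replicate 2 gave a median of -0.04, and leaving out knock-in replicate 2 gave -0.0021.

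Genes of mitosis had a median of 0.16, with 12 of 18 tested members higher, and 0 passed limma's adjusted test. The list was dim, with a mean level of 3.87 to 4.06 across the wild type arrays and 3.90 to 4.38 across the knock-in arrays. Its differences can thus be compressed. Bub1, Bub1b, Birc5, Ndc80 and Melk were too dim to test. Tpx2, a spindle assembly factor, and Ube2c, the ubiquitin-conjugating enzyme of mitotic exit, were at 0.29 (SE 0.10) and 0.42 (SE 0.15) with unadjusted p under 0.05, which makes 11.1% of the list against 11.3% of all tested genes. Mki67, the usual marker of dividing cells, was at 4.26, 4.21, 4.64 and 4.52 in wild type and 4.43, 5.06, 4.87 and 4.20 in knock-in arrays, a difference of 0.23 (95% interval -0.21 to 0.68). Top2a, the topoisomerase of condensing chromosomes, was at 3.33 to 4.05 and 3.69 to 4.61, close to the dim limit, a difference of 0.26 (95% interval -0.26 to 0.78). Knock-in replicate 2 stood apart in these genes: the mean of the list, with each gene centred, was 0.37 there and -0.11 to 0.0041 in the other knock-in arrays, against -0.15 to 0.04 in wild type. Without it the median of the mitosis genes was 0.04. Rrm2 was then at 0.77 and Tk1 at 0.82. Both were picked from this comparison and their groups do not overlap, so leaving out any array could not turn their sign. Nothing is read from the contrast with the mitosis genes.

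**Figure D4:**
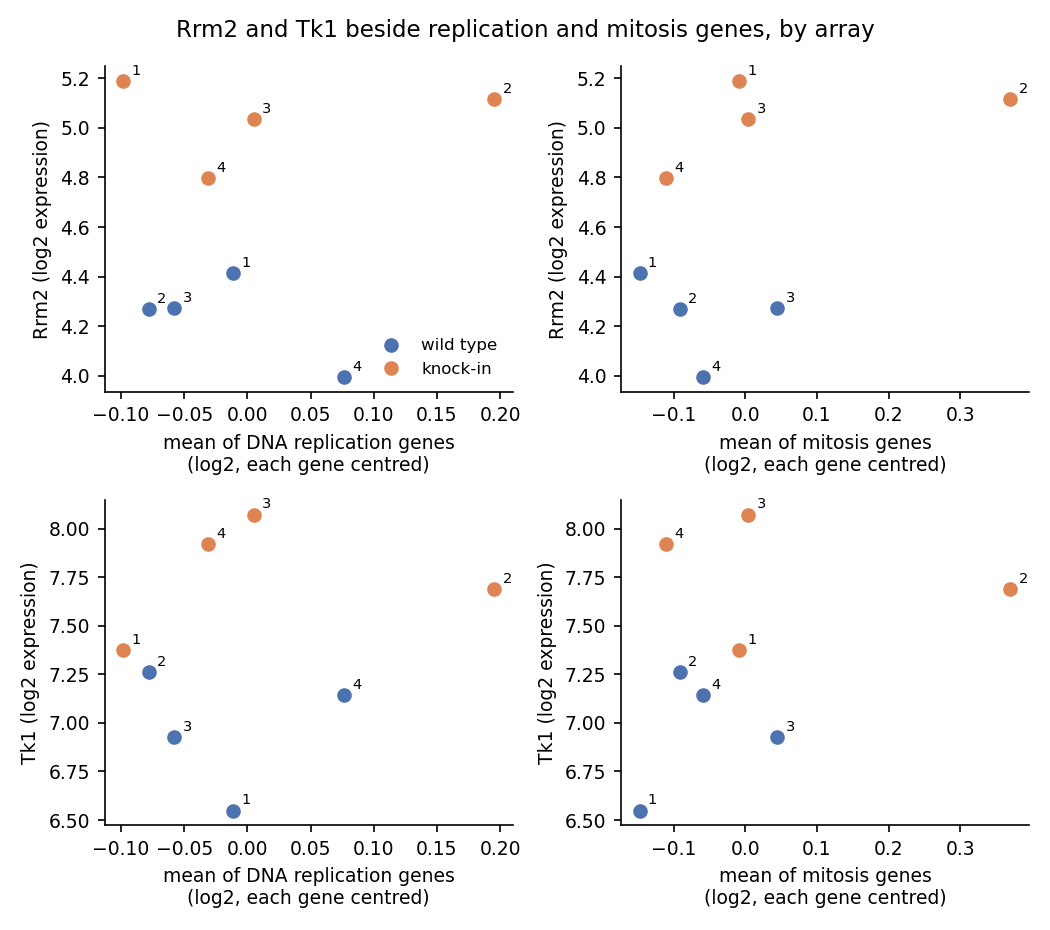
Rrm2 (top) and Tk1 (bottom) log2 expression in each array, against the mean of 30 DNA replication genes (left) and 18 mitosis genes (right), each gene centred on its mean over the arrays. Numbers are replicates. Knock-in replicate 2 lies to the right in both lists. Rrm2 and Tk1, which were picked from this comparison, separate the genotypes on the vertical axis.

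The E2F family and the brakes of the cell cycle, which control when Rrm2, Tk1 and Tyms are transcribed, had 12 of 26 tested members higher and a median of -0.04. Of these, 0 passed limma's adjusted test, and 15.4% had an unadjusted p under 0.05, against 11.3% of all tested genes. E2f8, a repressor of E2F targets, was at 6.14, 6.66, 7.44 and 7.31 in wild type and 5.92, 5.96, 5.79 and 5.74 in knock-in arrays. The groups did not overlap, and the knock-in arrays were close together. The difference was -1.04 (SE 0.26, 95% interval -1.63 to -0.45, limma adjusted p = 0.202). Ccne1, the cyclin of S phase entry, was higher by 0.51 (SE 0.16), and Tfdp2, a partner of the E2F proteins, by 0.34 (SE 0.13). Ccnd2, a cyclin of the G1 phase, was at -0.50 (SE 0.20). E2f1, an activator of the S phase genes, was at 0.02 (95% interval -0.29 to 0.33), and it lay below 0, at -0.05 to -0.04, when either of the first 2 wild type arrays or knock-in replicate 3 was left out.

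Targets of p53, the class to which Rrm2b belongs, had a median of -0.03 over 16 tested genes, 7 higher and 9 lower, with 0 past limma's adjusted test and 1 at an unadjusted p under 0.05, or 6.25% against 11.3% of all tested genes (Zmat3, an RNA-binding protein, at 0.30, SE 0.11). Cdkn1a, the cyclin-dependent kinase inhibitor p21, averaged 9.20 ± 0.57 in wild type against 9.07 ± 0.60 in knock-in liver (SD, n = 4 each), and Mdm2, the ubiquitin ligase of p53, was at -0.16 (95% interval -0.39 to 0.08).

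The upkeep of mitochondrial DNA draws on Tk2, Dguok and Rrm2b. Its other genes had a median of 0.05, with 9 of 14 tested members higher, 0 past limma's adjusted test and 2 higher at an unadjusted p under 0.05 (14.3% against 11.3% of all tested genes). Top1mt, the mitochondrial topoisomerase, was at 7.51 to 7.75 across the wild type arrays and 7.91 to 8.16 across the knock-in arrays, a difference of 0.43 (SE 0.09, limma adjusted p = 0.145). Lonp1, the protease of the mitochondrial matrix, was higher by 0.18 (SE 0.08). Polg, the polymerase that copies this DNA, was at 0.05 (95% interval -0.19 to 0.29), and Tfam, which packages it, at -0.01 (95% interval -0.25 to 0.23).

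Samhd1 and Cmpk2 are also known as interferon-induced genes. Of 12 tested interferon-stimulated genes, 10 were lower, with a median of -0.49, 0 past limma's adjusted test and 6 lower at an unadjusted p under 0.05, against 5.29% of all tested genes. Earlier results on these arrays already showed that direction, so the count is no independent evidence of it. Usp18, the protease that removes Isg15, was at -0.76 (SE 0.21), Rsad2, an antiviral enzyme that makes a chain-terminating nucleotide, at -0.70 (SE 0.22), and Stat2, a transcription factor of the interferon response, at -0.47 (SE 0.13). Cmpk2, at -0.78, lay just below these values, and Samhd1 was at -0.13 (95% interval -0.44 to 0.17).

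Clock genes are given because earlier results on these arrays had pointed to them. A score per array, the mean of 12 clock outputs and repressors minus that of 3 activators, ran from -1.46 to 0.08 over the wild type arrays and from -0.18 to 1.56 over the knock-in arrays, which overlap. The score largely goes with the genotype, so a fit with both cannot fully separate them, and the SEs of all 9 genes were larger in it. With that score as a covariate, Rrm2 was at 0.82 (SE 0.21) and Tk1 at 0.69 (SE 0.33). Among the other 7 genes the same covariate turned the sign in 4: Rrm1 to -0.19 (SE 0.15), Tyms to 0.24 (SE 0.39), Dck to -0.08 (SE 0.23) and Dut to -0.40 (SE 0.22). Samhd1 moved to -0.43 (SE 0.19). Of the clock outputs and repressors, Ciart, Per3 and Tef were higher by 2.51 (SE 0.46), 1.49 (SE 0.32) and 0.84 (SE 0.16). Of the 15 tested clock genes, 0 passed limma's adjusted test, with 11 at an unadjusted p under 0.05, against 11.3% of all tested genes.

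In bulk liver, more cells that express a gene and more RNA per cell cannot be told apart. The mean of 10 hepatocyte markers was 12.8 on every array, and their median difference was 0.01. Most of these markers lay near the top of the array range (maxima 13.59 to 13.66), so they may show little change. The highest median difference of the 9 marker lists was 0.19, for 9 stellate cell markers, of which 6 were higher. The largest were Acta2 by 0.60 and Col3a1 by 0.53 (limma adjusted p = 0.647 and 0.628). The 3 lower ones were Reln at -0.145, Lrat at -0.03 and Dcn at -0.0016. The median difference was 0.04 for 6 B and plasma cell markers and 0.04 for 4 cholangiocyte markers. The medians of the remaining 5 lists lay between -0.06 (7 T and NK cell markers) and -0.0065 (4 erythroid markers), with Kupffer cells at -0.0083 and sinusoidal endothelium at -0.0088. Of all 64 tested cell type markers, 0 passed limma's adjusted test and 3 were higher at an unadjusted p under 0.05, against 6.01% of all tested genes: Jchain of plasma cells by 1.04, Lyve1 of sinusoidal endothelium by 0.73 and Klf1 of erythroid precursors by 0.65. The other 7 tested endothelial markers were at -0.17 (Kdr) to 0.14 (Pecam1), and 4 of the 8 were lower. Of the 6 tested B and plasma cell markers, 4 were higher and 2 lower, with Cd79b at -0.38. Of the 4 tested erythroid markers, only Klf1 was higher, and the other 3 were slightly lower. The mean level of the 4 tested erythroid markers overlapped, with 4.68 to 4.85 across wild type arrays and 4.77 to 5.23 across knock-in arrays, and Hemgn and Gata1, which define those cells, were too dim to test. The part of these cell types in the differences of Rrm2 and Tk1 was not tested.

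The genes whose pattern was most like that of Rrm2, by Pearson correlation over the 8 arrays after the mean of each genotype was removed, were Icam4 (0.98), Ttc38 (0.98), Keap1 (0.98), Cpox (0.97) and Mctp2 (0.96). For Tk1 they were Asb2 (0.98), Il10ra (0.97), Zswim6 (0.97), Pla2g4a (0.97) and Slc25a4 (0.96). The lists share 0 genes, and neither holds a gene of DNA replication or mitosis. Lists this short, out of 13449 tested genes, would seldom overlap or hold such a gene, so nothing is read from either absence. The correlations are the highest of 13449 genes over 8 arrays that share a normalization, and they are a description. Ttc38 was itself higher by 0.37 (limma adjusted p = 0.207), and the differences of the remaining 9 lay between -0.34 and 0.11.

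**Figure D5:**
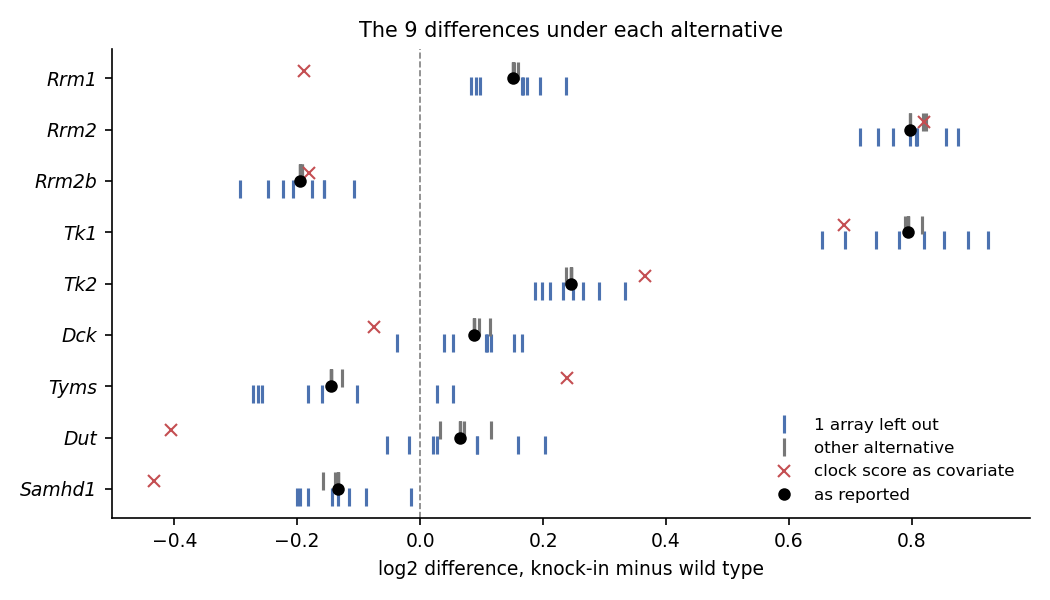
Log2 difference, knock-in minus wild type (horizontal axis), of the 9 genes as reported (black), with 1 array left out (blue), under other processing (grey) and with the clock score as a covariate (red). Rrm2 stays between 0.72 and 0.88 and Tk1 between 0.65 and 0.92. Their groups lie apart, so leaving out 1 array could not turn their sign. Tyms, Dck, Dut and Rrm1 cross 0.

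The 8 arrays were alike as a whole: their medians ran from 3.73 to 3.80, and over all probe sets each array correlated with the others at 0.973 to 0.980. Of all tested genes, limma called 9, 3 higher and 6 lower. Tm6sf2 had means of 9.72 ± 0.22 (wild type) and 9.66 ± 0.27 (knock-in; SD, n = 4 each), and since the variant is a coding change, its transcript level does not check the labels.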

How the data were processed

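Liver RNA was measured on 8 Affymetrix whole-transcript arrays, 4 per genotype, with groups taken from the sample titles. The deposited table holds log2 values per probe set and array; per the submitters' processing notes the authors used RMA and limma, with no versions given. The values, with array medians of 3.73 to 3.80, bear out the log2 scale and near-equal distributions. RMA removes a shift of most genes and compresses dim signals. The array's annotation build is not given in the sources used here. Of 41345 probe sets, 23521 had exactly 1 gene symbol, and 23328 of these matched RefSeq (GRCm38.p6) by Entrez identifier with 0 symbols changed. The probe set with the highest mean stood for each gene. Genes above the 40th percentile of the array on 4 or more of the 8 arrays were tested, which left 13449 of 22180. The genotypes were compared in R 4.3.3 with limma 3.58.1 (lmFit, eBayes, genotype as the term, two-sided, Benjamini-Hochberg over all tested genes, threshold 0.05), and the procedure was tested on simulated data. The number of arrays limits the precision.

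Genes and lists were chosen with earlier results of these data known. Besides the 9 genes, the text names fixed anchors and, per list, up to 3 genes per direction with the smallest unadjusted p under 0.05, plus the 5 genes closest in pattern to Rrm2 and to Tk1, without predicted genes. Other genes were named after their values were seen (the cell type markers). Alternatives were the filter, a further quantile normalization, the prior, array weights, the mean of probe sets, the replicate number, a clock score and leaving out each array.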

Additional observations from a re-analysis of the deposited data

Results flagged for a closer look

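In groups of 4 arrays, 7 of 90 gene and genotype combinations held an array whose gap to the nearest other value took up most of the range of its group (Dixon's 95% limit of 0.829). Chance flags about 1 in 20 groups, or 4.5 here. Among the 9 genes, 1 of 18 groups did so: Rrm1 was at 6.60 in wild type replicate 2, with the others at 6.80 to 6.83. Cmpk2 was at 6.95 in wild type replicate 1 (others 7.46 to 7.54), and Rsad2, another interferon-induced gene, at 7.39 in that array (others 8.03 to 8.09). Stat2 was at 8.32 in knock-in replicate 4 (others 7.78 to 7.83). Dtymk was at 6.88 in knock-in replicate 4 (others 6.57 to 6.61), and Dguok at 6.74 in knock-in replicate 1 (others 6.61 to 6.62). Ciart was at 6.66 in wild type replicate 4 (others 5.18 to 5.29). Rrm2 and Tk1 held no such array in either genotype.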

How the results depend on the processing

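Rrm2 and Tk1 stayed higher under each alternative that could be run, at 0.72 to 0.88 and 0.65 to 0.92. Much of this was fixed in advance. Their groups do not overlap, so leaving out 1 array could not turn their sign. The filter, the prior and the replicate block cannot change the size of a difference. Rrm2 was too dim to test under the stricter filter or as a mean over its probe sets. The count of the 9 genes past limma's adjusted threshold was 1 with array weights (Rrm2, from which nothing is read, since it was picked from this comparison) and 0 under the other 15 alternatives. Rrm2b, Tk2 and Samhd1 kept their sign under all 16. With the clock score as a covariate the sign turned in Rrm1 (-0.19), Tyms (0.24), Dck (-0.075) and Dut (-0.40). That score largely goes with the genotype, so this fit cannot fully separate them, and the cause was not tested. Leaving out 1 array gave -0.27 to 0.053 for Tyms, -0.038 to 0.17 for Dck and -0.054 to 0.20 for Dut. The clock score also turned Dtymk (0.034), Mki67 (-0.38), Top2a (-0.25), E2f1 (-0.21), Cdkn1a (0.43), Npas2 (0.10) and Arntl (0.35), and the medians of the other deoxynucleotide enzymes (0.027), replication (-0.14), mitosis (-0.14) and the clock activators (0.10). Npas2, Arntl and the clock activators are themselves part of that score, so nothing is read from their change of sign. Leaving out 1 array turned the sign at 1 end of the range in Dtymk (-0.12 to 0.00092), Pcna (-0.020 to 0.11), E2f1 (-0.051 to 0.12), Cdkn1a (-0.36 to 0.13), Polg (-0.031 to 0.099) and Tfam (-0.085 to 0.028), and in the medians of the other deoxynucleotide enzymes (-0.066 to 0.034), replication (-0.041 to 0.10), the E2F list (-0.054 to 0.0016) and p53 targets (-0.066 to 0.056).

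The 9 genes called over the whole table became 2 with no filter, 32 with the stricter filter, 73 with a trended and robust prior, 25 with array weights, 24 when probe sets were averaged, 1 with the clock score and 1 to 12 with 1 array left out. Among the fixed lists the count went from 0 to 1 with the trended prior (Tef) and to 0 to 1 with 1 array left out (Ciart, without knock-in replicate 4). The replicate numbers are not said to pair animals, and deviations of same-numbered arrays correlated at -0.11 to 0.10; with the replicate block 2 genes were called in all and 0 of the 9 described here. RMA can compress the differences of dim genes such as Rrm2 and Top2a, which was not tested here, and 4 arrays per genotype limit what differences can be seen.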
